A study of Mus musculus with 2 samples.

Results

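The 10 genes Dazl, Ddx4, Mael, Sycp1, Sycp3, Tex101, Stk31, Asz1, Hormad1 and Slc25a31 are active in germ cells and form a group of germline genes known for silencing by DNA methylation outside the germline. They were chosen by name, and they are 10 of the 21938 protein-coding genes of the GENCODE vM21 annotation of the mouse genome build mm10. Each gene was examined for ATAC-seq peaks within 500 bp on either side of its annotated start. ATAC-seq marks chromatin that a transposase can enter, so a peak is a measure of accessibility and not of transcription.

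The cells were mouse embryonic stem cells of the line EHMT2-dTAG-mcherry, labelled BL6/129 hybrid and derived from the line KH2 (an F1 cross of C57BL/6J and 129S1), kept in medium with FBS/LIF on a feeder layer of mouse embryonic fibroblasts. EHMT2, an enzyme that methylates histone H3 at lysine 9, carries in this line a tag through which it can be degraded, but all cells here received only the vehicle DMSO for 24 h. There were 2 samples, which the study describes as independent clones, each with 50000 cells and 3 technical replicates. The deposited list of 116782 peaks is named as merged and was taken here to hold both clones, although the step at which they were joined is not given in the sources used here. It stands for 1 condition. No spread between clones can be given and no test between groups was possible. DNA methylation and RNA were not measured in these files, so the silencing in the name of the gene group could not be checked.

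Germline genes code for proteins of the germ cell's RNA granules, of meiotic chromosomes and of sperm. Many of their promoters are rich in CpG dinucleotides, and as the embryo implants they gain DNA methylation that keeps them off in somatic cells. In embryonic stem cells many are also held down by a Polycomb complex of the PRC1.6 type, which is recruited through MGA with MAX at E-box sequences and through E2F6 with its partner at E2F sequences, and by H3K9 methyltransferases.

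A peak covered the annotated start of 9 of the 10 genes, and Tex101 had none. Such a peak lay at 64.3% of all protein-coding gene starts. At the start of each gene record, CpG content separated the genes in the same way: CpG observed over expected, in the 500 bp on either side of the start, was between 0.604 and 0.753 at the 9 genes with a peak and was 0.258 at Tex101. Of the protein-coding genes with high CpG content (a ratio of at least 0.6), 96.9% had a peak at the start, against 80.9% of those with intermediate content (0.35 to 0.6) and 15.8% of those with low content (below 0.35). The 9 of 9 high-CpG germline genes with a peak were therefore near the share for any gene of that class, and Tex101 was, by that start, in the class in which most genes had no peak. This placing of Tex101 rests on the start chosen. Its gene record begins at transcripts outside GENCODE's basic set, while the start of its basic transcript, which is also its RefSeq start, lies 4625 bp into the gene, where the ratio was 0.435 and the class intermediate. At the RefSeq starts the other 9 genes remained in the high class.

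Promoter sequences are printed for 6 of the genes, from 250 bases before the gene start to 50 bases from the start on, as read from the GRCm38 (mm10) reference genome at the GENCODE starts. Capitals mark matches to the E-box CACGTG, which reads the same on both strands, and to the E2F sequence GGCGGGA, which appears as TCCCGCC when it lies on the other strand. Hormad1, Mael and Slc25a31 are shown because they held both sequences, Sycp3 because it held a pair of E-boxes, Dazl because it had the highest fold enrichment and neither sequence, and Tex101 because it had no peak. The Tex101 sequence is that of its gene record's start and not of its RefSeq start.
Hormad1 (chr3:95559427-95559726, plus strand): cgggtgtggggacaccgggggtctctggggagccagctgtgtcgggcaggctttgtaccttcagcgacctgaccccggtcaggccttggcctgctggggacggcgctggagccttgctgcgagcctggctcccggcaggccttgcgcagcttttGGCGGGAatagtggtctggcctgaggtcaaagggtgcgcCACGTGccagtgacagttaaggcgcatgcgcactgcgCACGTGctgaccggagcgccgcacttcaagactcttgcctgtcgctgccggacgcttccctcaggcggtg
Mael (chr1:166238698-166238997, minus strand): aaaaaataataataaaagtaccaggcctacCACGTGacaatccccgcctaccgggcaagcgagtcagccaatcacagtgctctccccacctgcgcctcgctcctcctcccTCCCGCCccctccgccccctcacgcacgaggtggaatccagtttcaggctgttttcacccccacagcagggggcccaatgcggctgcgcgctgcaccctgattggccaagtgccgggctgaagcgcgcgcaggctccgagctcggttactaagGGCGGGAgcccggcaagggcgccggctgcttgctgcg
Slc25a31 (chr3:40708605-40708904, plus strand): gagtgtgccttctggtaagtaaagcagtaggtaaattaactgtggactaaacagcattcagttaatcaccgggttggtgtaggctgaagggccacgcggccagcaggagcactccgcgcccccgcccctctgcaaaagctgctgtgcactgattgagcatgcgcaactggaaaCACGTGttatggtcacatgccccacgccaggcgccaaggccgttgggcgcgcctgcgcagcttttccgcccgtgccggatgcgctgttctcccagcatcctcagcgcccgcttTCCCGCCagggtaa
Sycp3 (chr10:88459319-88459618, plus strand): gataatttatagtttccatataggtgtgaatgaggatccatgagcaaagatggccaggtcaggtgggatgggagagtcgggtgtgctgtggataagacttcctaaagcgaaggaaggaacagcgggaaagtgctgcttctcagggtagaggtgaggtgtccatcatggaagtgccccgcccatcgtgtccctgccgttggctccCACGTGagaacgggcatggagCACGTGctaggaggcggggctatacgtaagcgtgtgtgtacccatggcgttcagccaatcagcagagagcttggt
Dazl (chr17:50293587-50293886, minus strand): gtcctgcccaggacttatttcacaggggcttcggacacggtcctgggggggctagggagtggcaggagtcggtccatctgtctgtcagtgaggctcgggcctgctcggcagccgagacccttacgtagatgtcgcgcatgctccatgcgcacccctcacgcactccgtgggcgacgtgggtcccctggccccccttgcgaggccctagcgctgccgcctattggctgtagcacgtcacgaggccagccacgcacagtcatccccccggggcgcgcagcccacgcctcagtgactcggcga
Tex101 (chr7:24676626-24676925, minus strand): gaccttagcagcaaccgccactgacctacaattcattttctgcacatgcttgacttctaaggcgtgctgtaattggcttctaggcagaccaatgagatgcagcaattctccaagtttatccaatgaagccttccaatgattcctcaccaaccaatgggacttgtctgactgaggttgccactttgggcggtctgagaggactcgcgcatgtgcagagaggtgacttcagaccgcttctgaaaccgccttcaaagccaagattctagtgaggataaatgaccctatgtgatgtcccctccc

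The E-box was found in 6 of the 10 promoters, those of Mael, Slc25a31, Hormad1, Sycp1, Stk31 and Sycp3, against 7.75% of all protein-coding promoters and 11.1% of those with high CpG content. At Hormad1 the matches began 57 and 20 bp before the gene start, and at Sycp3 they began 46 and 25 bp before it. The single matches began 77 bp before the start at Slc25a31, 94 bp at Sycp1, 120 bp at Stk31 and 220 bp at Mael. All of these positions lay inside the ATAC-seq peak of their gene. In the wider window of 500 bp on either side, 8 of the 10 genes held an E-box, now also Asz1 and Ddx4, against 17.1% of all genes and 22.7% of high-CpG genes.

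The E2F sequence was found in 4 of the 10 promoters, against 14.1% of all protein-coding promoters and 24.5% of those with high CpG content. It began 96 bp before the start at Hormad1, 28 bp after it at Ddx4, 36 bp after it on the other strand at Slc25a31, and at Mael both 140 bp before the start on the other strand and 13 bp after it. With 500 bp on either side it was found at 5 genes, against 28.8% of all genes and 49.2% of high-CpG genes. In that window the count was close to the high-CpG share. The shorter GCGGGA, which every GGCGGGA contains, was found in 6 of the 10 promoters, against 24.0% of all and 41.3% of high-CpG promoters. With 500 bp on either side it was again found at 6, against 47.3% of all and 76.5% of high-CpG genes, so there the count was below the high-CpG share. The 10 genes include Tex101, of the low class by this start and without a match, so these are not comparisons within the high class. At the RefSeq starts, which were added after the data were seen, the E-box was found at 7 genes, now also at Ddx4, and GGCGGGA at 4. In the 300 bases Dazl, Asz1 and Tex101 held neither the E-box nor GGCGGGA. A match is a description of the letters, and binding of any factor was not measured here.

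The number of CpG dinucleotides in the 300 printed bases was 24 at Hormad1, 24 at Mael, 21 at Slc25a31, 13 at Sycp3, 26 at Dazl and 7 at Tex101. Of the promoters not printed, Stk31 held 28, Sycp1 21, Ddx4 18 and Asz1 17. At these starts Tex101 had the fewest, and Sycp3 the fewest among genes with a peak, while at the RefSeq starts Tex101 held 19 and Sycp3 15.

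**Figure D1:**
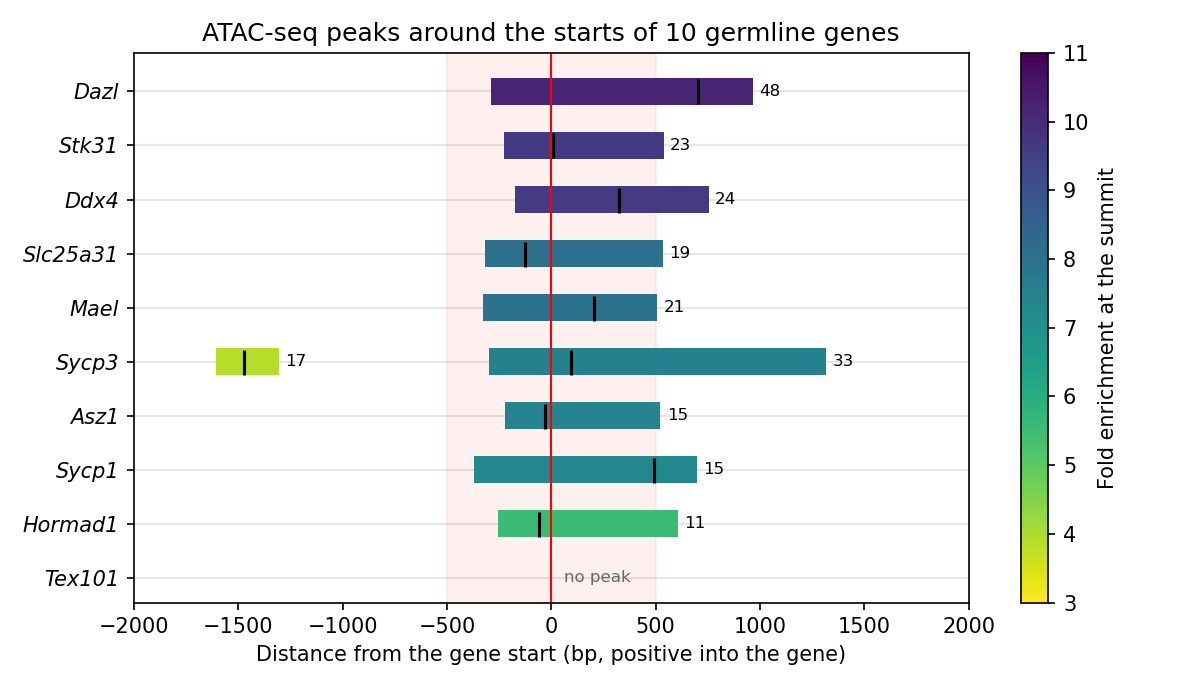
Peaks within 2000 bp of the starts of the 10 germline genes, ordered by fold enrichment. Bars span each peak in bp from the gene start (red line, shaded window of 500 bp on either side), colour gives the fold enrichment, black ticks the summit, and the number beside each bar the fragments over the summit. The start of each of 9 genes is covered, Dazl and Sycp3 have the widest peaks, and Tex101 has no peak in the range.

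For each peak the authors deposited a fold enrichment, which is the fragment pileup at the summit over a local background, each with 1 added, and a −log10 q-value. From the fold and the deposited −log10 p-value the number of fragments over the summit was recovered. With it came a 95% exact Poisson interval, which takes the background as fixed and covers counting error only. Over the 9 peaks fold enrichment ran from 5.55 to 10.2 with a median of 8.03, and fragments ran from 11 to 48 with a median of 21. At all 14106 protein-coding gene starts with a peak, the median fold was 8.43 and the median was 32 fragments. The intervals of fold overlapped in all 36 pairs of the 9 genes. Overlap alone does not show that folds are equal, and no pair was compared directly, so the order of fold among them is not settled here. The intervals of fragments were apart in 7 pairs, of which 6 were Dazl against Mael, Sycp1, Stk31, Asz1, Hormad1 or Slc25a31, and the other was Sycp3 against Hormad1.

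Among the genes of germ cell RNA granules, Dazl (ENSMUSG00000010592.9, chr17:50279395-50293636, minus strand) codes for an RNA-binding protein that promotes translation in germ cells. Its peak, chr17:50292668-50293925, had a fold enrichment of 10.2 (7.58 to 13.5), a −log10 q of 32.6 and 48 fragments (35.4 to 63.6). These were the highest fold and the most fragments of the 9, and Dazl was the only one above the median fragment number of high-CpG gene starts, which was 38. The summit lay 703 bp into the gene, in an intron and 41 bp from the start of a protein-coding transcript that begins 744 bp downstream of the gene start. Dazl was thus the one gene whose peak covered the start while its summit fell outside the window of 500 bp. Its peak was also the only one within 50 kb on either side of its start.

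Ddx4 (ENSMUSG00000021758.14, chr13:112598333-112652475, minus strand) codes for the germ cell RNA helicase also known as Vasa. Its peak, chr13:112651720-112652649, had a fold enrichment of 9.62 (6.30 to 14.1), a −log10 q of 17.8 and 24 fragments (15.4 to 35.7). The summit lay 326 bp into the gene in an intron, 152 bp from the start of a second protein-coding transcript. A further peak inside the gene, chr13:112616958-112617254, lay in an intron with a fold of 3.24 and 6 fragments, the fewest of any peak in the list.

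Mael (ENSMUSG00000040629.8, chr1:166201201-166238747, minus strand) codes for maelstrom, which acts in the piRNA pathway that silences transposons in germ cells. Its peak, chr1:166238240-166239074, had a fold enrichment of 8.03 (5.11 to 12.1), a −log10 q of 13.7 and 21 fragments (13.0 to 32.1), with the summit 206 bp into the gene in an exon. By fold and by fragments Mael was the middle gene of the 9.

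Asz1 (ENSMUSG00000010796.11, chr6:18050964-18109061, minus strand) codes for an ankyrin-repeat protein of the mitochondrial surface that is also needed for piRNAs. Its peak, chr6:18108538-18109283, had a fold enrichment of 7.40 (4.34 to 11.9), a −log10 q of 10.1 and 15 fragments (8.40 to 24.7), with the summit 28 bp upstream of the gene. At 746 bp it was the narrowest of the 9 peaks. The local background at Asz1 was 1.16 fragments, as at Hormad1, and to that precision it was the lowest of any peak in the list.

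Stk31 (ENSMUSG00000023403.14, chr6:49395604-49469501, plus strand) codes for a testis protein with a Tudor and a kinase domain. Its peak, chr6:49395377-49396143, had a fold enrichment of 9.68 (6.28 to 14.3), a −log10 q of 17.4 and 23 fragments (14.6 to 34.5). The summit lay 7 bp into the gene, the nearest to a gene start among the 9. A transcript that begins 42960 bp into the gene had no peak at its start.

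Among the genes of meiotic chromosomes, Sycp3 (ENSMUSG00000020059.9, chr10:88459569-88473236, plus strand) codes for a protein of the lateral elements of the synaptonemal complex, which holds paired chromosomes together. Its peak, chr10:88459269-88460886, had a fold enrichment of 7.52 (5.25 to 10.5), a −log10 q of 18.4 and 33 fragments (22.7 to 46.3), with the summit 93 bp into the gene in an exon. At 1618 bp it was the widest of the 9, wider than 89.0% of the peaks at protein-coding gene starts. A second peak lay 1303 to 1605 bp upstream of the start, with a fold of 3.90 and 17 fragments, and no other of the 10 genes had a second peak within 2000 bp.

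Sycp1 (ENSMUSG00000027855.13, chr3:102818499-102936100, minus strand) codes for the transverse filament of the same complex. Its peak, chr3:102935401-102936472, had a fold enrichment of 7.27 (4.27 to 11.7), a −log10 q of 9.95 and 15 fragments (8.40 to 24.7), with the summit 492 bp into the gene in an exon. Inside the gene, 69693 and 87194 bp from the start, lay 2 more peaks in introns. The first, chr3:102865834-102866983, had a fold of 9.17 with 19 fragments, and the second, chr3:102848559-102849133, a fold of 10.8 with 23 fragments. Both values exceeded that of the peak at the start, within its counting interval. Sycp1 was the only one of the 10 genes with an internal peak of a −log10 q above 10, and 8 of the 10 had no internal peak away from the start. Over all protein-coding genes the median was 1 such internal peak, with quartiles of 0 and 2. Sycp1 was also the longest of the 10 genes, at 117602 bp, and internal peaks were not set against gene length.

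Hormad1 (ENSMUSG00000028109.14, chr3:95559677-95587671, plus strand) codes for a HORMA-domain protein of the meiotic chromosome axis. Its peak, chr3:95559422-95560284, had a fold enrichment of 5.55 (3.0 to 9.56), a −log10 q of 5.97 and 11 fragments (5.49 to 19.7), with the summit 61 bp upstream of the gene. This was the weakest of the 9 by fold, q-value and fragments. It nonetheless exceeded 70.8% of all peaks in the list by fold, since peaks at gene starts were stronger than the list as a whole, whose median was a fold of 3.98 with 9 fragments.

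Of the remaining pair, Slc25a31 (ENSMUSG00000069041.8, chr3:40708855-40726096, plus strand) codes for an ADP/ATP carrier of the mitochondria of male germ cells. Its peak, chr3:40708537-40709389, had a fold enrichment of 8.06 (5.02 to 12.4), a −log10 q of 12.9 and 19 fragments (11.4 to 29.7), with the summit 128 bp upstream of the gene.

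Tex101 (ENSMUSG00000062773.6, chr7:24668007-24676675, minus strand) codes for a protein anchored at the germ cell surface that is needed for sperm function. No peak lay within 500 bp of its start, nor within 2000 bp. The nearest, chr7:24637788-24638985, lay 37690 bp away beyond the 3′ end of the gene, inside Lypd3, with a fold of 4.51 and 10 fragments. On the upstream side the nearest lay 51128 bp away, with a fold of 3.24 and 6 fragments. Of all protein-coding gene starts, 5.55% were at least as far from a peak. The RefSeq start of Tex101 had no peak either, and the nearest lay 33065 bp from it. A peak was listed only where its q-value was below 0.05, so weaker accessibility at Tex101 was not detectable in this list and is not shown to be absent.

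**Figure D2:**
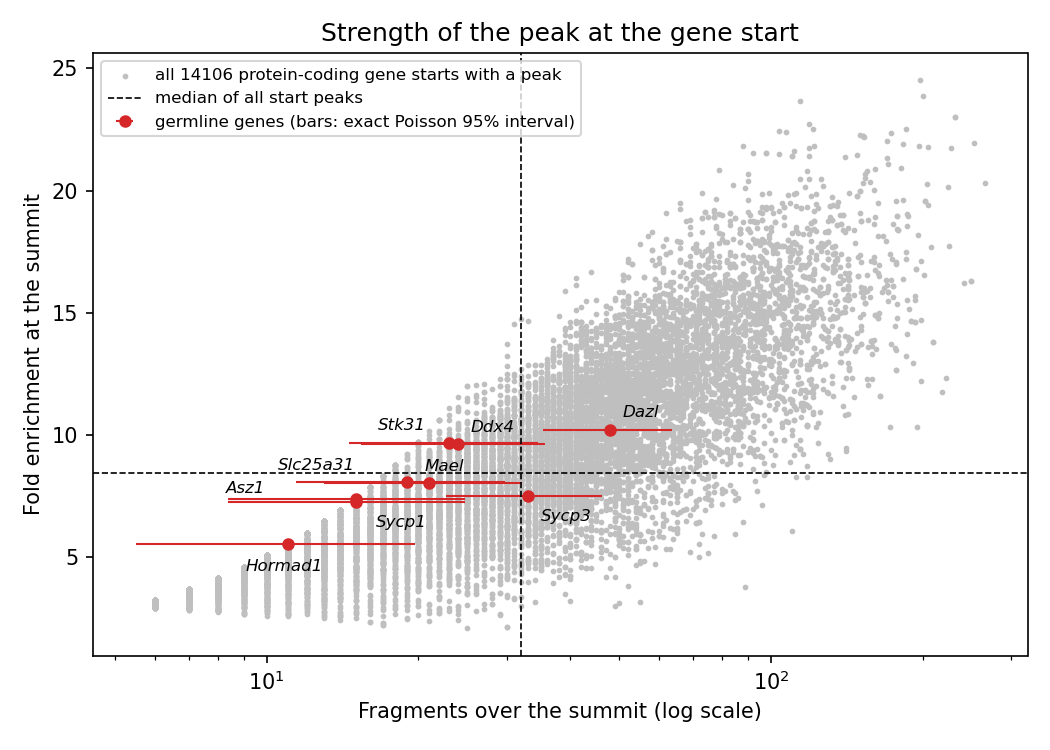
Fold enrichment at the summit against fragments over the summit (log scale) for the peak at each protein-coding gene start (grey), with 9 germline genes in red and the exact Poisson 95% interval of their fragments. Dashed lines mark the medians of all start peaks, 8.43-fold and 32 fragments. By fragments 7 of the 9 genes lie to the left of the median, with Dazl and Sycp3 to its right.

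The 9 peaks differed from other gene starts more in fragments than in fold. Against all peaks at protein-coding gene starts, 6 of the 9 were below the median fold and 1, Hormad1, was below the lower quartile of 5.86. By fragments 7 of the 9 were below the median of 32. Against high-CpG gene starts alone, 8 of the 9 had fewer than the median of 38 fragments and 6 had fewer than the lower quartile of 24, while 1 was below the lower quartile of fold, which was 6.76. The local background was also low at 7 of the 9. There it was 1.16 to 1.74 fragments, all below the lower quartile of 1.94 at all gene starts with a peak. It was 3.52 at Sycp3 and 3.8 at Dazl. The 1.16 at Asz1 and Hormad1 equalled the lowest value of the list, so it cannot be told apart from a floor set in peak calling. With 1 merged list these are descriptions without a test.

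The median width of the 9 peaks was 863 bp against 1045 bp at all gene starts with a peak, and 6 of the 9 were narrower than that median and 2 than the lower quartile of 812 bp. Against high-CpG gene starts 7 of the 9 were narrower than the median of 1100 bp and 5 than the lower quartile of 881 bp. The median distance of the summit from the start was 128 bp against 132 bp. Of the 9 summits 4 lay in an exon, 2 in an intron and 3 upstream of the gene.

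The surroundings of the genes held few peaks. Within 50 kb on either side of the start, the 10 genes had a median of 3 peaks against 6 for all protein-coding genes, and 8 of the 10 were below that median. Peaks covered 1.12% to 6.18% of these bases, with a median of 2.39%, against 4.51% for all protein-coding genes, and 9 of the 10 were below it, Sycp3 being the exception. No other annotated gene start lay within 500 bp of any of the 10 starts, and the nearest, of the unclassified transcript Gm43845 at Asz1, lay 2900 bp away. Each peak could therefore be assigned to its germline gene without a neighbour in the window. None of the 9 peak sequences matched another place in the reference genome at 90% identity over 50% of its length.

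**Figure D3:**
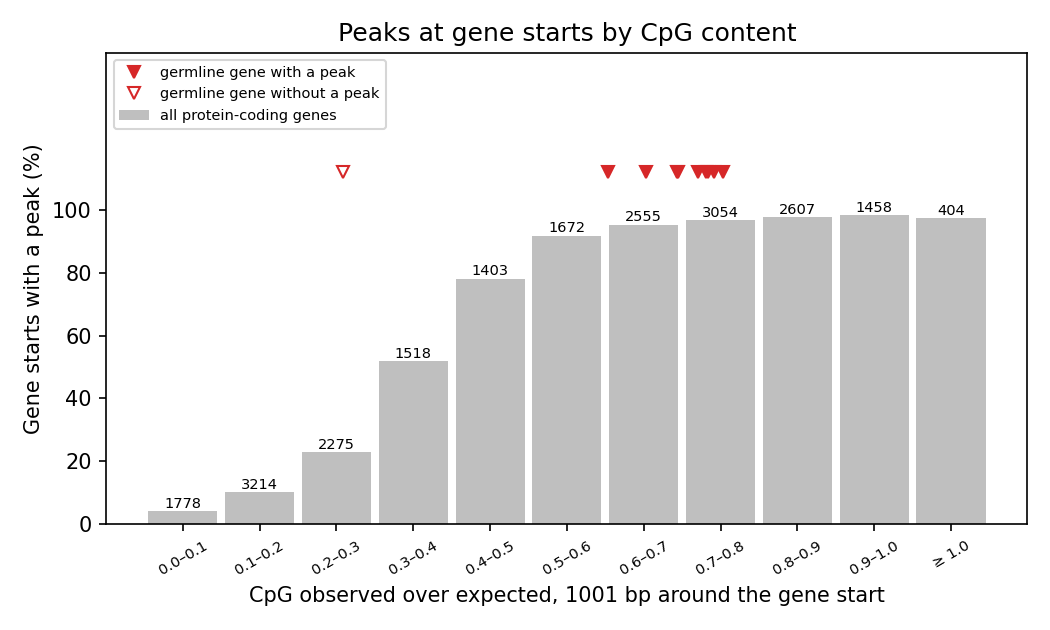
Share of protein-coding gene starts with a peak within 500 bp, by CpG observed over expected in the 500 bp on either side of the start, with the number of genes above each bar. Triangles mark the 10 germline genes on the same axis: 9 with a peak (filled) from 0.604 to 0.753, and Tex101 without one (open) at 0.258 by the start of its gene record. At its RefSeq start, which is not plotted, its ratio was 0.435.

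The share of gene starts with a peak rose along CpG content from 4.22% of 1778 genes with a ratio below 0.1 to 96.7% of 3054 genes between 0.7 and 0.8. By the start of its gene record Tex101 fell in the bin between 0.2 and 0.3, in which 22.9% of 2275 genes had a peak, and by its RefSeq start it would fall between 0.4 and 0.5, in which 78.2% of 1403 genes had one. The other 9 fell in the bins between 0.6 and 0.8, in which 95.4% of 2555 and 96.7% of 3054 genes had one. High content was itself more common among these genes, at 9 of 10 against 45.9% of all protein-coding genes.

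The number of genes with a peak depended little on how the start was drawn. It was 9 of 10 within 250 bp, against 62.9% of all protein-coding genes, and 9 of 10 when any annotated transcript start counted, against 70.0%. It fell to 8 when the summit had to lie within 500 bp, against 57.4%, because the summit at Dazl was farther away. With a −log10 q of at least 10 it was 7, against 47.1%, because the peaks of Sycp1 and Hormad1 were below that value.

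Other germline genes give a setting for the 10. A list of 60 other germline genes was drawn from general knowledge, with earlier results of these data known. Of the 60, 44 had a peak at the start, or 73.3% against 64.3% of all protein-coding genes. The median fold of these peaks was 7.04 and the median was 19 fragments. The 60 genes were less CpG-rich than the 10, with 28 in the high, 22 in the intermediate and 10 in the low class. A peak lay at 25 of the 28 in the high class, or 89.3% against 96.9% of all genes of the class. It lay at 17 of the 22 in the intermediate class, or 77.3% against 80.9%, and at 2 of the 10 in the low class, or 20% against 15.8%.

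By role, 21 of 24 genes of meiotic chromosomes had a peak, or 87.5% against 64.3% of all protein-coding genes. Their folds ran from 3.70 to 17.2 with a median of 7.80. The highest were Mei4, needed for meiotic DNA breaks, with a fold of 17.2 and 119 fragments, Stag3, a meiotic cohesin subunit, with 13.7, and Mnd1, which acts in strand exchange, with 13.4. Of 15 piRNA and germ granule genes 11 had a peak, or 73.3%, with folds from 3.15 at Tdrd1 to 15.2 at Tdrkh. Of 15 genes of germ cell specification and regulation 8 had one, or 53.3%, with a median fold of 5.84. These roles were formed after the values were seen and were not split by CpG class, so their shares are not separated from CpG content. The window at Stag3 and that at Tdrkh also held the start of another gene, so their peaks cannot be assigned to one of them. Without such genes 37 of 53 other germline genes had a peak, or 69.8%.

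In the other germline genes of high CpG content, 3 had no peak in the window: Fkbp6, Mei1 and Prdm1, named after their values were seen. The nearest peak lay 512 bp from the start of Prdm1, just outside the window, 2970 bp from Fkbp6 and 3875 bp from Mei1. No gene of high CpG content among the 10 lacked a peak.

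**Figure D4:**
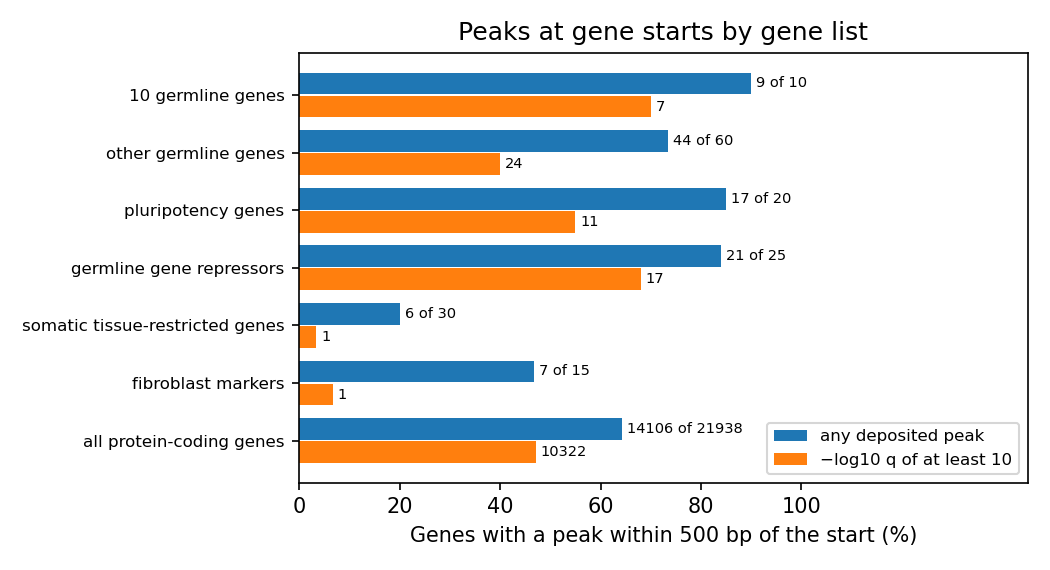
Share of genes in each list with a peak within 500 bp of the start (blue) and with such a peak of a −log10 q of at least 10 (orange), with the numbers of genes beside the bars. The 10 germline genes stand at 9 and 7, the 30 somatic tissue-restricted genes at 6 and 1, and all 21938 protein-coding genes at 14106 and 10322.

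Genes for repressors of germline genes had a peak at 21 of 25 starts, or 84% against 64.3% of all protein-coding genes, with a median fold of 8.21 and a median of 32 fragments. Of the 25, 19 were in the high, 2 in the intermediate and 4 in the low CpG class. In these classes 96.9%, 80.9% and 15.8% of all protein-coding genes had a peak, so the 84% is not separated from CpG content. The 4 of the low class, Dnmt1, Dnmt3l, Trim28 and Atf7ip, named after their values were seen, were those without a peak. Their nearest peaks lay 6559 bp from the start at Dnmt1, 1238 bp at Dnmt3l, 6513 bp at Trim28 and 6007 bp at Atf7ip. As at Tex101, this rests on the start of the gene record. Other transcript starts of these 4 are not given here, so their promoters are not shown to be closed. Of the 25 the 2 highest were Hdac2, a histone deacetylase, with a fold of 14.3 and 96 fragments, and Kdm5c, an H3K4 demethylase, with 14.2 and 47 fragments. Ehmt2, named here because it is the tagged gene, had a peak with a fold of 3.33 and 13 fragments, and its window held another gene's start.

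Pluripotency genes, the markers of the labelled cell type, had a peak at 17 of 20 starts, or 85% against 64.3% of all protein-coding genes. Esrrb, Nr5a2 and Fgf4, named after their values were seen, had none and were in the low CpG class. Their nearest peaks lay 4459, 1421 and 772 bp from the start of the gene record, and their other starts are not given here. Of the 20, 7 were in the high, 8 in the intermediate and 5 in the low class. In these classes 96.9%, 80.9% and 15.8% of all protein-coding genes had a peak, and the 85% is not separated from CpG content. Of the 20 the 2 highest were Zfp42, a stem cell marker, with a fold of 15.9 and 151 fragments, and Klf5, a factor of the naive state, with 14.8 and 135 fragments. The lowest, Pou5f1, named after its values were seen, had a fold of 2.83 and 17 fragments. The median fold of the 17 peaks, 5.56, was below the 8.03 of the germline genes and the 8.43 of all start peaks. Their median of 40 fragments was above the 21 of the germline genes and the 32 of all start peaks. Of 30 somatic tissue-restricted genes none had high CpG content, 3 were in the intermediate and 27 in the low class. In these classes 80.9% and 15.8% of all protein-coding genes had a peak. Of the 30 somatic genes 6 had a peak, or 20% against 64.3% of all protein-coding genes. The 2 highest were Mbp, a myelin gene, with a fold of 5.98 and 27 fragments, the only one with a −log10 q of at least 10, and Ckm, a muscle creatine kinase, with 5.28 and 20 fragments. Of 15 fibroblast markers 1 was in the high, 7 in the intermediate and 7 in the low CpG class. Of the 15, 7 had a peak, or 46.7% against 64.3% of all protein-coding genes, which is not separated from CpG content. The 2 highest were the collagen genes Col1a2, with a fold of 7.5 and 23 fragments and the only one with a −log10 q of at least 10, and Col1a1, with 6.42 and 18 fragments. The share of feeder cells in the material was not measured, and their part in the peaks at germline genes was not tested.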

How the data were processed

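ATAC-seq was done on 2 samples, taken as 1 group from their labels. The authors aligned the reads to mm10 with STAR 2.7.10, placing reads with several equal matches at random, removed duplicates with Picard 2.26.0, removed High Signal Regions, shifted the fragments for the transposase and called peaks with MACS2 2.2.6 at q below 0.05. The submitters' processing notes, which give these versions, also name SAMtools 1.14 and bedtools 2.30.0. The deposited list gives positions, a score (not used further), a fold enrichment (a ratio), a −log10 p-value and a −log10 q-value of the summit. The p- and q-values are those of the peak caller against local background and were not tested again.

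Fragments over the summit and background were recovered here by inverting the way MACS2 derives fold and p-value. They came out whole for 116778 of 116782 peaks, within a relative tolerance of 0.0002, and for 99.9% of 9830 simulated peaks. Library totals were not analysed here, so the depth is known only as these fragments. Gene starts came from GENCODE vM21 (the 5′ end of each gene), and the 116777 peaks of the main chromosomes entered. CpG content and motifs were read from GRCm38 with Python 3.11.15, NumPy 2.4.6 and pandas 2.3.3, Poisson intervals came from SciPy 1.17.1, and peak sequences were matched with BLAST 2.17.0.

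The 10 genes and all lists were chosen with earlier results of these data known, and the role groups were formed after the values were seen. All 10 genes are named. Of the comparison lists the 2 highest folds, and of the other germline genes any with a peak, could be named, and not all of the latter are. The windows, thresholds and annotation were varied as given in the closing part. The starts of RefSeq, with CpG content and motifs there, and the search for other copies of the peak sequences were added after the data were seen.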

Additional observations from a re-analysis of the deposited data

How the results depend on the processing

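The count of 9 genes with a peak at the start stayed between 7 and 9 over windows of 250, 1000 and 2000 bp, the summit rule, any transcript start, a −log10 q of at least 10 and, added after the data were seen, RefSeq starts. The median distance of the 10 genes from a peak was 0 bp to its edge and 167 bp to its summit. The counts that moved most were those of the comparison lists at a −log10 q of at least 10. Other germline genes went from 44 to 24 of 60 and pluripotency genes from 17 to 11 of 20. Somatic genes went from 6 to 1 of 30 and fibroblast markers from 7 to 1 of 15. Each count falls by construction, since fewer peaks are counted. The share of all protein-coding genes went from 64.3% to 47.1%. Other germline genes were above the first of these shares and below the second. At RefSeq starts 9 genes kept high CpG content, but Tex101 moved from 0.258 to 0.435. In all, 26 planned values and 4 added values stayed within 1.5 times of the reported one. No paired analysis was possible because only 1 peak list, named as merged, was used, and for the same reason neither clone could be left out. Fragments at these peaks are few, so fold is imprecise, and agreement between the clones was not analysed here.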
